A study of Mus musculus with 12 samples.

Results

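Fatty acid oxidation and ketone body synthesis were described through 34 mouse liver genes, chosen by name for their place in these pathways: the regulators Ppara and Ppargc1a, the uptake, carnitine, mitochondrial and peroxisomal enzymes that shorten fatty acids, and the enzymes and switch around ketone synthesis. All 34 listed genes were measured and passed the filter on dim probe sets, among 14568 genes tested. A gene was taken from the probe sets that carry its symbol in the platform annotation, and where it had several (19 of the 34 genes, 64 probe sets in all) the one with the highest mean over the 12 arrays was used. Levels are quantile-normalised log2 intensities, so that 1 unit is a doubling. Levels were compared between arrays and not between genes, since each probe set binds with its own strength.

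The study asked how livers that lack the endoplasmic reticulum stress sensor Ire1α, encoded by Ern1, respond to tunicamycin, a drug that blocks N-linked glycosylation and so loads the endoplasmic reticulum with misfolded protein. RNA of whole mouse liver was hybridised to Affymetrix arrays, 3 for each of 4 groups labelled biological replicates. The null tunicamycin and control tunicamycin groups received 2 µg tunicamycin per gram of body weight, and the null vehicle and control vehicle groups received 150 µM dextrose. Injections were intraperitoneal, and livers were taken 8 hours later. All mice were C57Bl/6J and 3 months old. The null mice are titled Fe-CRE+ and the controls Fe+CRE+, so both carried the Cre transgene and a Cre effect common to both groups cannot be seen in the comparisons. The promoter that drives Cre and the part of Ern1 that is removed are details not given in the sources used here. P-values weigh differences of group means against the spread of arrays within the 4 groups, pooled over these 12 arrays. With 3 arrays per group the precision is limited. In whole tissue, fewer cells of a type and less RNA per cell cannot be told apart.

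Mitochondrial β-oxidation imports fatty acids as carnitine esters and shortens them in a spiral of dehydrogenation, hydration, dehydrogenation and thiolysis. Peroxisomes shorten very long and branched chains first. In fasting liver the acetyl-CoA produced is turned into acetoacetate and β-hydroxybutyrate for export. The nuclear receptor PPARα, bound to DNA with a retinoid X receptor at direct repeats spaced by 1 base, drives many of these genes in hepatocytes, and PGC-1α, the product of Ppargc1a, is a coactivator of it.

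Promoter windows of 250 bases before to 50 bases after the transcription start were found for 29 of the 34 genes in RefSeq, build GRCm38.p6 (31 windows). They were searched on both strands for the nuclear receptor direct repeat DR1, here AGGNCA and AGGNCA with 1 base between them, which 0.38% of 32851 mouse windows hold, for the receptor core AGGTCA (16.26% of windows), for TGATGCAA, a composite site of C/EBP and ATF factors (0.89%), for the cyclic AMP response element TGACGTCA (1.79%) and for the endoplasmic reticulum stress element ERSE, CCAAT and CCACG with 9 bases between them (0.12%). Of the 29 genes only Fabp1 held the direct repeat and only Echs1 held TGATGCAA, while neither of the last 2 motifs was found in any. The core AGGTCA was found in 7 genes, Acadm, Acadvl, Cd36, Cpt1a, Echs1, Fabp1 and Slc27a2, and in Fabp1 1 of 2 copies lies within its direct repeat. A match describes these letters and shows no binding. The first 2 windows below are shown for these motifs, in capitals, and the other 2 belong to the genes with the largest fall and the largest rise after tunicamycin among the 34 genes in control livers, and hold none of the 5 motifs. In Fabp1 (chr6:71199629-71199928, plus strand) the repeat lies on the opposite strand from base -67 to -55 before the start. In Echs1 (chr7:140116372-140116671, minus strand) the capitals run from -164 to -157. Ppargc1a lies at chr5:51567676-51567975 and Pdk4 at chr6:5496229-5496528, both on the minus strand.
Fabp1: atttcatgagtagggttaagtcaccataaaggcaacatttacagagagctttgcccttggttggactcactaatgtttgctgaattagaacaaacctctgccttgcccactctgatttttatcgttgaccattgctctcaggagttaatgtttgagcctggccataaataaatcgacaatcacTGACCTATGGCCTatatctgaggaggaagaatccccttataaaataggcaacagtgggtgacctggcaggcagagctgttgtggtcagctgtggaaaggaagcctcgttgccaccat
Echs1: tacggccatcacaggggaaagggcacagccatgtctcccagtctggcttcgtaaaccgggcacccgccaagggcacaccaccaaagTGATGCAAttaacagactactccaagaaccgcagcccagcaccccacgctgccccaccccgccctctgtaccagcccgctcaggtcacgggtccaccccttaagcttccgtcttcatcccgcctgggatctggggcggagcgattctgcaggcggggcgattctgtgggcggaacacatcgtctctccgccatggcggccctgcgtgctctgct
Ppargc1a: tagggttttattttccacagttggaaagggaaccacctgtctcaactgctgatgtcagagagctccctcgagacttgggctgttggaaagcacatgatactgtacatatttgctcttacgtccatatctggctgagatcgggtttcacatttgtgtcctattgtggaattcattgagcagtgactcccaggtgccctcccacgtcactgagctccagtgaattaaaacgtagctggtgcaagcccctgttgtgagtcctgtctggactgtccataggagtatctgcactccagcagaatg
Pdk4: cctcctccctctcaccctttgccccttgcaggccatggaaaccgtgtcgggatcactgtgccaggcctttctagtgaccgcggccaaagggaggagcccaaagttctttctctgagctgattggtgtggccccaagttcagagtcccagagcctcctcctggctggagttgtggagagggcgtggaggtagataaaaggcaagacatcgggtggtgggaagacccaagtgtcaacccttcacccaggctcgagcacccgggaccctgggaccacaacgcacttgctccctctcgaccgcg

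Of the hepatocyte markers none of the 13 measured passed the test in any comparison, and their mean level was 13.12 to 13.21 in null tunicamycin, 13.07 to 13.12 in control tunicamycin, 13.13 to 13.14 in null vehicle and 13.07 to 13.17 in control vehicle livers. One array, null tunicamycin replicate 2, carried kidney transcripts: 15 of 20 measured kidney markers were over 1 unit above the highest of the other 11 arrays, with Calb1 at 12.09 (at most 4.97 elsewhere), Kap at 12.84 (at most 5.98) and Umod at 13.14 (at most 6.55). Counts and calls of the 34 genes that involve the null tunicamycin group are therefore given with and without it. Kupffer cell markers, 11 measured, averaged 8.19 to 9.06 in null tunicamycin, 8.88 to 9.27 in control tunicamycin, 8.80 to 9.38 in null vehicle and 9.31 to 9.79 in control vehicle livers. The ratio of 5′ to 3′ actin control probe sets, a sign of RNA integrity, averaged 0.309 in null tunicamycin and 0.500 in null vehicle livers, and 0.328 in control tunicamycin and 0.757 in control vehicle livers (exact permutation p = 0.2 and 0.1, where 0.1 is the smallest that 3 against 3 arrays allow). The brightest Ern1 probe set differed between null and control livers by 0.10 under tunicamycin and -0.13 with vehicle (adjusted p = 0.899 and 0.995), and without knowledge of the removed part it cannot check the genotype labels.

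**Figure D1:**
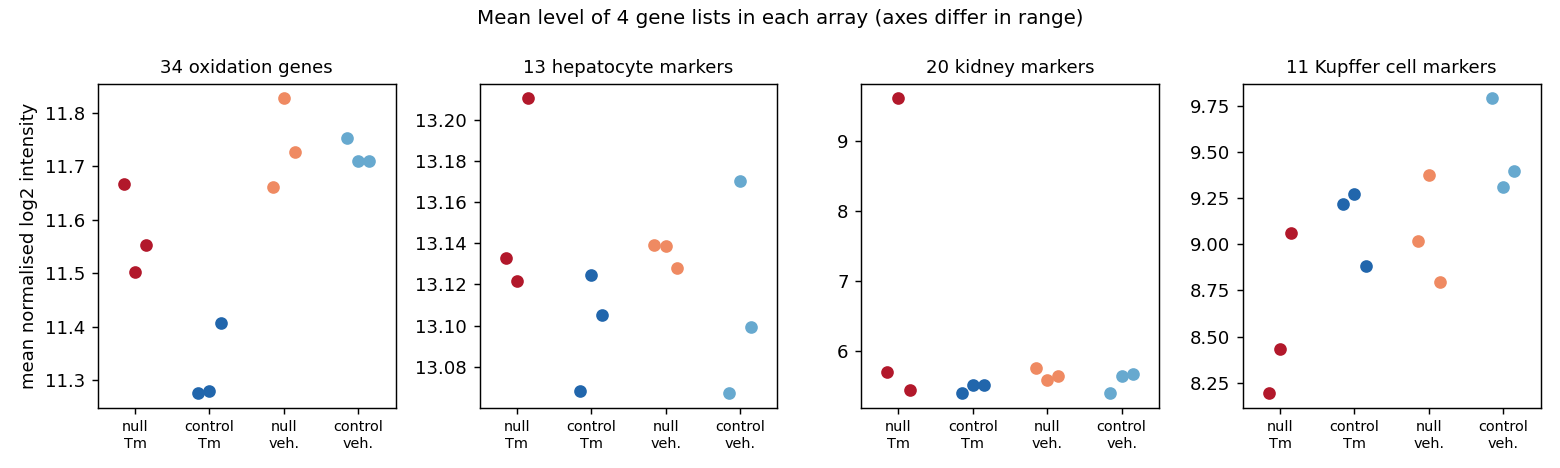
Mean normalised log2 intensity of the 34 oxidation genes and of the hepatocyte, kidney and Kupffer cell marker lists, 1 point per array and 3 arrays per group (null and control livers under tunicamycin, Tm, then with vehicle, veh.). The oxidation genes averaged 11.28 to 11.41 in control tunicamycin and 11.71 to 11.75 in control vehicle livers, and 1 null tunicamycin array stands at 9.61 on the kidney panel. The axes of the panels differ in range.

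In Ire1α null livers Cpt2, Acat1 and Bdh1 fell after tunicamycin, Pdk4 rose and 30 genes did not pass the test, an adjusted p under 0.05 over all 14568 genes. That is 11.8% of the 34 genes, where 16.8% of all genes were called (7.59% higher and 9.23% lower), so the share was not above the background. The change was negative in 26 of the 34 genes (76.5%, against 56.8% of all genes) and the median was -0.24, against -0.07 for all genes. The arrays of both groups did not overlap in 11 genes (32.4%, against 33.1% of all genes). Under other scalings the split between directions turned, in the 34 genes and in all genes alike. With array medians centred in place of quantile normalisation 2 of the 34 rose (Pdk4 and Acox2) and Acat1 fell, while 1258 of all genes rose and 704 fell, against 1105 and 1344 in the main setting. With the values as deposited 2 of the 34 rose and 0 fell, while 1478 of all genes rose and 513 fell. The median of the 34 genes differed from that of all genes by -0.18 in the main setting and by -0.14 under either other scaling. Negative changes numbered 23 of the 34 with medians centred and 18 with the deposited values, against 26 in the main setting. Without null tunicamycin replicate 2, Pdk4 rose and 3 genes fell (Cpt2, Acat1 and Ppargc1a), a share of 11.8% against 15% of all genes, and the median was -0.18.

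In control livers, more of the oxidation genes fell than rose after tunicamycin. Of the 34 genes, 14 fell, Pdk4 rose and 19 did not pass the test. The share called was 44.1%, where 25.0% of all genes were called in either direction (11.6% higher). The share that fell was 41.2%, where 13.3% of all genes fell. The change was negative in 32 of the 34 genes (94.1%, against 59.4% of all genes), and the arrays of the 2 groups did not overlap in 24 (70.6%, against 42.6% of all genes). The median log2 change was -0.38 for the 34 genes and -0.11 for all genes. The genes that fell include the regulators, Cpt2 and Crat of the carnitine shuttle, enzymes of the mitochondrial spiral and the ketone enzymes. The number of calls, and how it stands to the background, depends on the scaling. With array medians centred, or with the values as deposited, 5 genes fell and Pdk4 rose, and the genes still called were Ppara, Ppargc1a, Crat, Ehhadh, Acat1 and Pdk4. The share called was then 17.6%, below the 22.5% of all genes called with medians centred and the 21.5% with the deposited values, while the share that fell was 14.7%, against 8.12% and 7.33% of all genes. The median of the 34 genes differed from that of all genes by -0.27 in the main setting and by -0.23 under either of the other scalings. Under each of those scalings the change was negative in 25 of the 34 genes, against 32 in the main setting. Without control tunicamycin replicate 2 the count of calls was 9 (26.5%, against 17.7% of all genes). The mean actin ratio was lower with tunicamycin (values above). A fit that held this ratio as a covariate called 5 genes, Cpt2, Crat, Eci1, Acat1 and Pdk4, a share of 14.7% near the 12.9% of all genes. In control livers the ratio was 0.295 to 0.389 with tunicamycin and 0.454 to 1.10 with vehicle, without overlap. Ratio and treatment are thus confounded there, and their parts in the lost calls cannot be told apart.

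**Figure D2:**
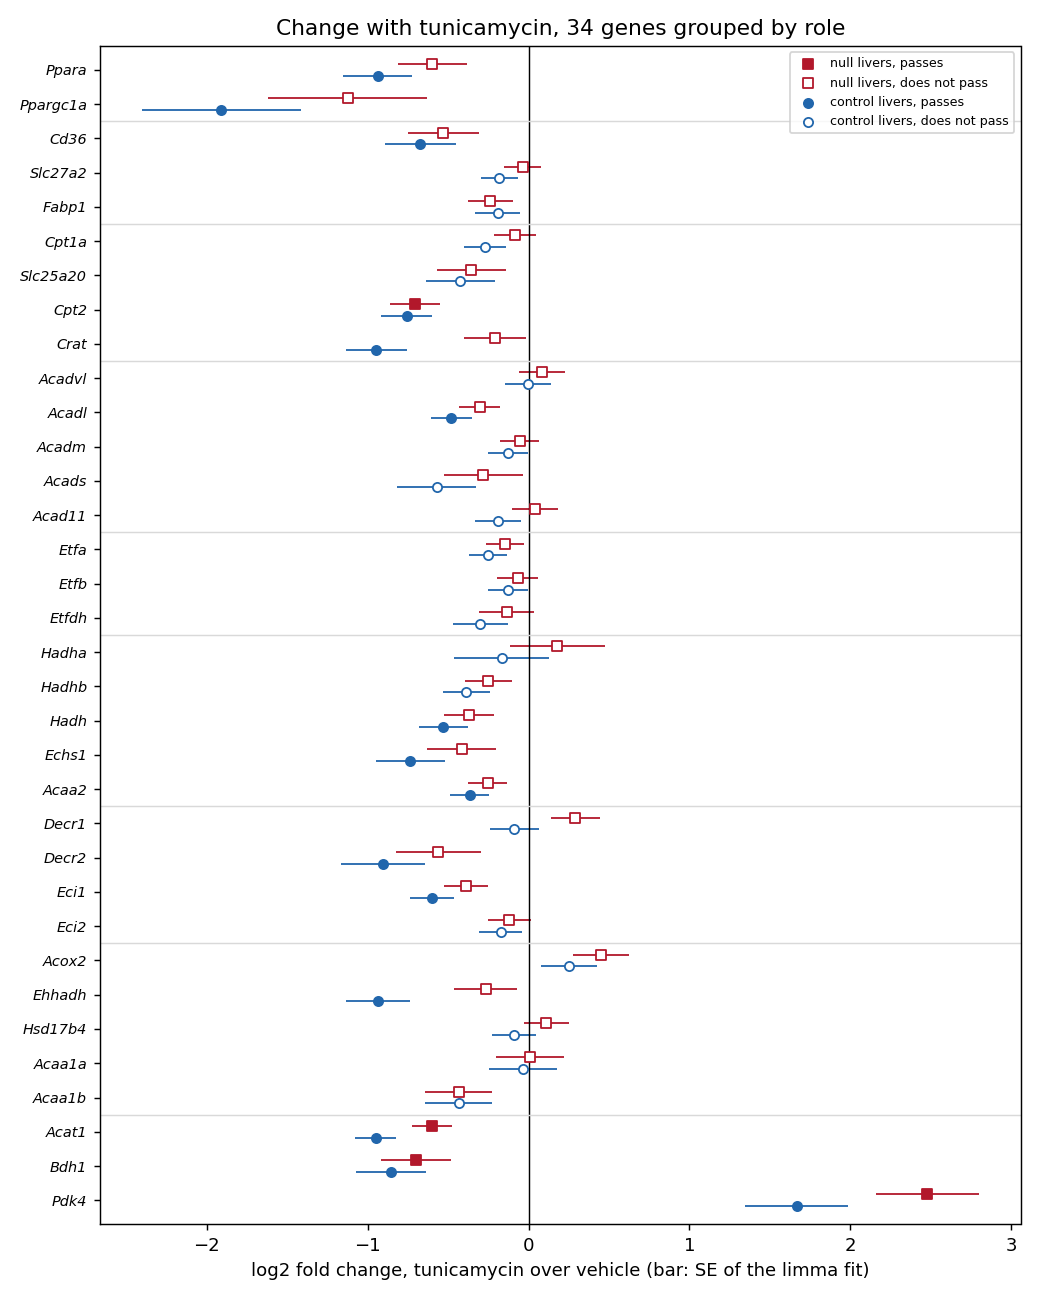
Log2 fold change of each of the 34 genes, tunicamycin over vehicle, in null livers (squares) and control livers (circles), with the standard error of the limma fit as bars and 3 arrays per group. Filled symbols pass an adjusted p under 0.05, 4 genes in null and 15 in control livers, and grey lines divide the role groups. Most symbols lie left of 0, Ppargc1a farthest for both genotypes, and Pdk4 lies far to the right.

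Both regulators fell after tunicamycin in control livers. Ppara, the receptor, stood at 10.69, 10.70 and 10.18 in null tunicamycin and 9.79, 9.93 and 10.39 in control tunicamycin livers, against 11.05, 11.22 and 11.10 in null vehicle and 10.62, 11.02 and 11.28 in control vehicle livers. Ppara differed by -0.60 ± 0.21 on the log2 scale in null livers (SE of the limma fit on 3 arrays per group, as in all such values here, adjusted p = 0.0781) and fell by 0.94 ± 0.21 in control livers (adjusted p = 0.007). In either genotype all 3 tunicamycin arrays lay below all 3 vehicle arrays. A second Ppara probe set, tested with all probe sets, fell by 2.52 in null livers (adjusted p = 0.0186) and differed by -1.42 in control livers (adjusted p = 0.134), and its difference between null and control livers under tunicamycin, -0.91, had the opposite sign to the 0.49 of the probe set used. With the mean of all Ppara probe sets for the gene, the change was -1.33 in null livers (adjusted p = 0.0247) and -1.02 in control livers (adjusted p = 0.0529), so the call passed to the other genotype.

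Ppargc1a, the coactivator, stood at 6.98, 8.42 and 6.88 in null tunicamycin and 5.43, 6.25 and 6.12 in control tunicamycin livers, against 8.67, 9.47 and 7.52 in null vehicle and 8.23, 7.91 and 7.40 in control vehicle livers. In null livers the change was -1.12 ± 0.49 (adjusted p = 0.15) and the arrays overlapped, with null tunicamycin replicate 2, the array with kidney transcripts, the highest of its group. Without that array Ppargc1a fell by 1.63 ± 0.46 in null livers (adjusted p = 0.0348), and without null vehicle replicate 3 the change was -1.64 (adjusted p = 0.0445). In control livers Ppargc1a fell by 1.91 ± 0.49 (0.266-fold, adjusted p = 0.014), more than any other of the 34 genes, and the control tunicamycin arrays lay below every other array of the series. This fall missed the threshold without control tunicamycin replicate 1 (-1.64, adjusted p = 0.0606). The change was negative for all 5 Ppargc1a probe sets in both genotypes, with 1 past the test in null livers (-1.49, adjusted p = 0.0355) and 4 in control livers (-2.70 to -1.91).

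**Figure D3:**
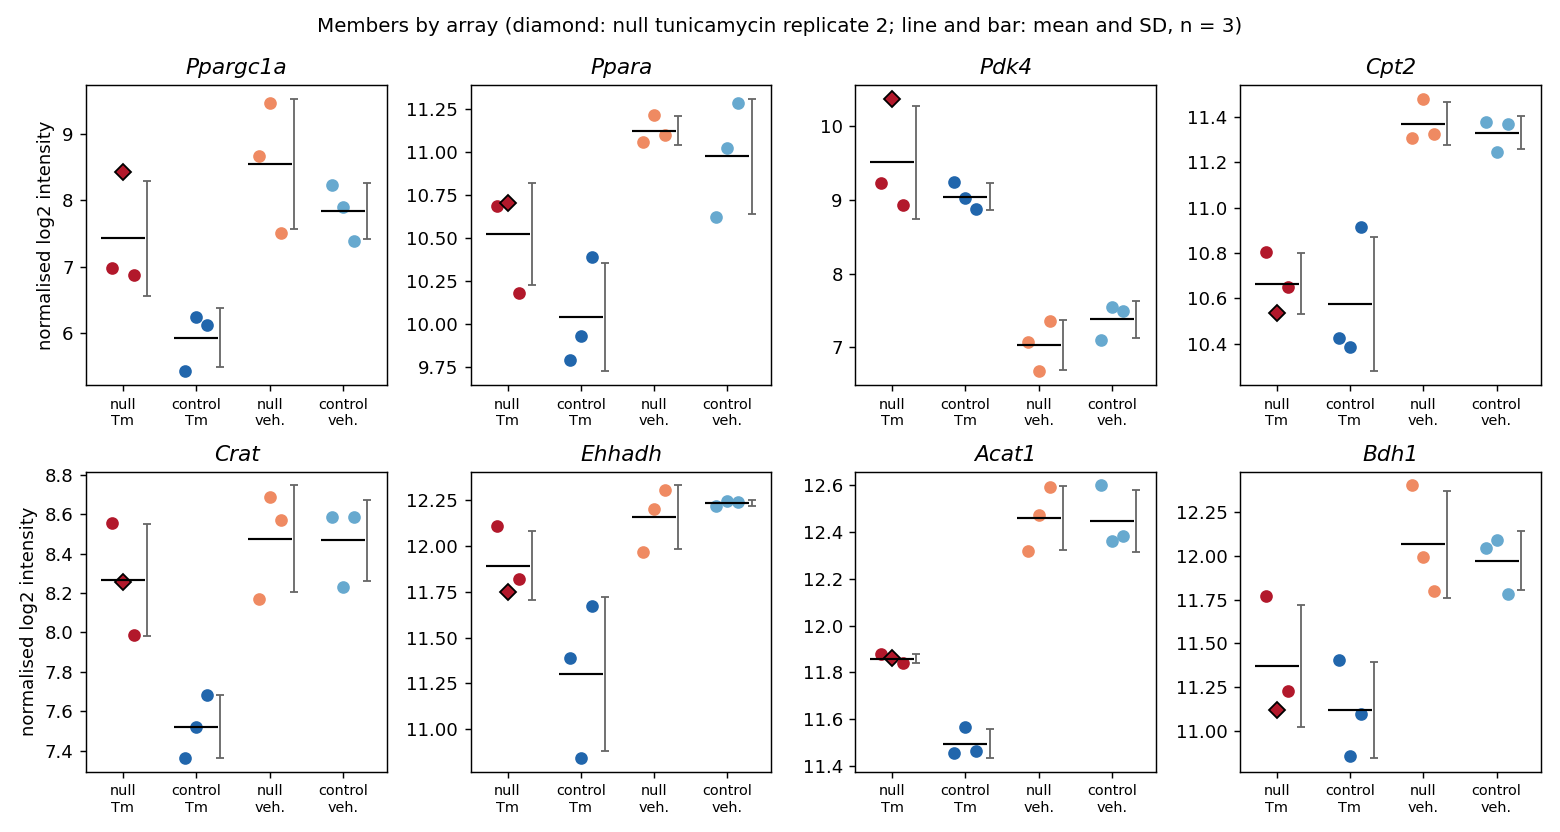
Normalised log2 intensity of 8 genes in each array (points, with the group mean as a line and the SD as a bar, n = 3), by group in the order null tunicamycin (Tm), control tunicamycin, null vehicle (veh.) and control vehicle. The diamond marks null tunicamycin replicate 2. Pdk4 is higher in both tunicamycin groups, Cpt2 and Acat1 are lower in both, and for Crat and Ehhadh the control tunicamycin arrays lie below all others.

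Of 3 genes of uptake and binding, 1 fell in control livers. Cd36, a fatty acid translocase of the plasma membrane, stood at 10.48, 10.33 and 10.56 in null tunicamycin and 9.71, 10.31 and 10.61 in control tunicamycin livers, against 10.79, 11.03 and 11.12 in null vehicle and 10.59, 10.93 and 11.14 in control vehicle livers. Cd36 differed by -0.53 ± 0.22 in null livers (adjusted p = 0.127), whose arrays did not overlap, and fell by 0.67 ± 0.22 in control livers (adjusted p = 0.0426), where 1 tunicamycin array reached the range of the vehicle arrays. The call was lost on leaving out any 1 of 8 arrays, with values of -0.72 to -0.42 and adjusted p of 0.0526 to 0.164: control tunicamycin replicates 1 and 2, control vehicle replicates 2 and 3, null tunicamycin replicates 1 and 3 and null vehicle replicates 2 and 3. Slc27a2, a transporter that also activates very long chains, differed by -0.04 ± 0.11 in null and -0.18 ± 0.11 in control livers (adjusted p = 0.873 and 0.286). Fabp1, the liver fatty acid binding protein whose window holds the direct repeat shown above, differed by -0.24 ± 0.14 in null and -0.19 ± 0.14 in control livers (adjusted p = 0.284 and 0.356). Without null tunicamycin replicate 2 the change in null livers was -0.10 for Fabp1 (adjusted p = 0.67) and -0.06 for Slc27a2 (adjusted p = 0.808).

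Of the 4 genes of the carnitine shuttle, 1 fell in null livers and 2 fell in control livers. Cpt1a, which makes acylcarnitine at the outer membrane and is the controlled entry step, stood at 11.84, 11.83 and 11.63 in null tunicamycin and 11.63, 11.71 and 11.75 in control tunicamycin livers, against 11.66, 11.92 and 11.97 in null vehicle and 12.05, 11.93 and 11.92 in control vehicle livers. The change was -0.08 ± 0.13 in null livers (adjusted p = 0.722), where the arrays overlapped. In control livers the tunicamycin arrays lay below the vehicle arrays, but the change of -0.27 ± 0.13 missed the threshold (adjusted p = 0.162). Cpt2, which returns the acyl group to coenzyme A inside, stood at 10.81, 10.54 and 10.65 in null tunicamycin and 10.42, 10.38 and 10.92 in control tunicamycin livers, against 11.31, 11.48 and 11.33 in null vehicle and 11.38, 11.25 and 11.37 in control vehicle livers. It fell by 0.71 ± 0.16 in null livers (0.613-fold, adjusted p = 0.01) and by 0.76 ± 0.16 in control livers (0.592-fold, adjusted p = 0.00421). Neither genotype's arrays overlapped between treatments, and without null tunicamycin replicate 2 the fall in null livers was 0.64 ± 0.18 (adjusted p = 0.0318). Under centred medians or the deposited values both Cpt2 calls were lost (adjusted p of 0.0591 to 0.136).

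Crat, carnitine acetyltransferase, which moves acetyl and other short groups onto carnitine, stood at 8.55, 8.26 and 7.99 in null tunicamycin and 7.36, 7.52 and 7.68 in control tunicamycin livers, against 8.17, 8.69 and 8.57 in null vehicle and 8.59, 8.23 and 8.58 in control vehicle livers. In null livers the change was -0.21 ± 0.19 (adjusted p = 0.507) and the arrays overlapped. Crat fell by 0.95 ± 0.19 in control livers (adjusted p = 0.00338), all 3 control tunicamycin arrays being below all 9 others. Of the 2 other Crat probe sets, one differed by -0.38 in null and -0.26 in control livers and one by 0.05 in null and -0.17 in control livers, none past the test. Slc25a20, the carrier that exchanges acylcarnitine for carnitine, differed by -0.36 ± 0.22 in null and -0.42 ± 0.22 in control livers (adjusted p = 0.302 and 0.18), and by -0.14 ± 0.20 in null livers without null tunicamycin replicate 2 (adjusted p = 0.698). Its other probe set fell by 0.64 in control livers (adjusted p = 0.0197).

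Acyl-CoA dehydrogenases, which open each turn of the spiral and differ in the chain length they accept, were mostly short of the test, with 1 of 5 called. Acadl, for long chains, stood at 12.26, 11.95 and 12.19 in null tunicamycin and 11.90, 11.88 and 11.82 in control tunicamycin livers, against 12.50, 12.34 and 12.47 in null vehicle and 12.39, 12.37 and 12.27 in control vehicle livers. Acadl differed by -0.30 ± 0.13 in null livers (adjusted p = 0.125) and fell by 0.48 ± 0.13 in control livers (adjusted p = 0.0149). Treatments did not overlap in either genotype, and the null tunicamycin arrays lay just above the control tunicamycin arrays. Acadvl, for very long chains, differed by 0.08 ± 0.14 in null livers and by -0.0035 ± 0.14 in control livers, the smallest change of the 34 genes there. Acadm, for medium chains, differed by -0.06 ± 0.12 in null and -0.13 ± 0.12 in control livers. Acads, for short chains, differed by -0.28 ± 0.24 in null and -0.57 ± 0.24 in control livers (adjusted p = 0.487 and 0.113). Acad11, a further family member, differed by 0.04 ± 0.14 in null and -0.19 ± 0.14 in control livers. Without null tunicamycin replicate 2 the change in null livers was 0.15 for Acadvl, -0.12 for Acadm and 0.11 for Acad11 (adjusted p of 0.555, 0.61 and 0.706).

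The electron transfer flavoprotein carries electrons from these dehydrogenases to the respiratory chain, and none of its 3 genes passed the test. Etfa, its α subunit, stood at 12.34, 12.43 and 12.23 in null tunicamycin and 12.24, 12.27 and 12.29 in control tunicamycin livers, against 12.38, 12.45 and 12.60 in null vehicle and 12.54, 12.53 and 12.48 in control vehicle livers. The change was -0.14 ± 0.12 in null livers (adjusted p = 0.458), where the arrays overlapped, and -0.25 ± 0.12 in control livers (adjusted p = 0.148), where they did not. Etfb, the β subunit, differed by -0.07 ± 0.12 in null livers (-0.03 without null tunicamycin replicate 2) and -0.13 ± 0.12 in control livers. Etfdh, the oxidoreductase that passes the electrons on to ubiquinone, differed by -0.14 ± 0.17 in null and -0.30 ± 0.17 in control livers.

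Within the mitochondrial spiral 0 of 5 genes passed in null livers and 3 of 5 fell in control livers. Echs1, the enoyl-CoA hydratase for short chains, stood at 10.78, 10.97 and 10.82 in null tunicamycin and 10.58, 10.91 and 11.09 in control tunicamycin livers, against 10.86, 11.60 and 11.35 in null vehicle and 11.82, 11.26 and 11.70 in control vehicle livers. Echs1 differed by -0.41 ± 0.21 in null livers, with overlap (adjusted p = 0.221), and fell by 0.73 ± 0.21 in control livers, with no overlap (adjusted p = 0.0256). Hadh, the hydroxyacyl-CoA dehydrogenase for short and medium chains, stood at 13.24, 12.84 and 12.92 in null tunicamycin and 12.94, 12.57 and 12.80 in control tunicamycin livers, against 13.53, 13.33 and 13.25 in null vehicle and 13.29, 13.41 and 13.20 in control vehicle livers. It differed by -0.37 ± 0.15 in null livers (adjusted p = 0.127) and fell by 0.53 ± 0.15 in control livers (adjusted p = 0.0253), with no overlap in either.

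Acaa2, the mitochondrial thiolase that releases acetyl-CoA, stood at 12.95, 12.71 and 12.84 in null tunicamycin and 12.70, 12.61 and 12.82 in control tunicamycin livers, against 13.04, 13.14 and 13.09 in null vehicle and 13.11, 13.06 and 13.06 in control vehicle livers. It differed by -0.25 ± 0.12 in null livers (adjusted p = 0.183) and fell by 0.37 ± 0.12 in control livers (adjusted p = 0.0447). No tunicamycin array reached the vehicle arrays of its genotype. Leaving out any 1 of 11 arrays, all but null tunicamycin replicate 2, ended the Acaa2 call (-0.43 to -0.32, adjusted p of 0.0511 to 0.155). The Echs1 and Hadh calls were lost on leaving out any 1 of 4 arrays each, with values of -0.76 to -0.60 for Echs1 (adjusted p of 0.0613 to 0.104) and -0.55 to -0.43 for Hadh (adjusted p of 0.053 to 0.11). These were control tunicamycin replicates 1 and 2 and control vehicle replicates 1 and 3 for Echs1, and control tunicamycin replicates 2 and 3 and control vehicle replicates 1 and 2 for Hadh. Hadha and Hadhb, the subunits of the trifunctional protein for long chains, are neighbours whose promoter windows share 228 bases. Hadha differed by 0.18 ± 0.30 in null livers (0.34 ± 0.32 without null tunicamycin replicate 2) and -0.17 ± 0.30 in control livers. Hadhb differed by -0.25 ± 0.14 in null and -0.39 ± 0.14 in control livers (adjusted p = 0.278 and 0.0726), and another of its probe sets differed by 1.03 in control livers (adjusted p = 0.17). The probe sets used for Hadh, Hadhb and Acaa1a end in _x_at and those for Acaa2 and Acad11 in _s_at, endings that mark probe sets able to bind other transcripts as well.

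Auxiliary enzymes for unsaturated chains had 2 of 4 genes fall in control livers. Decr2, the peroxisomal dienoyl-CoA reductase, stood at 10.44, 9.65 and 10.55 in null tunicamycin and 9.61, 10.16 and 10.31 in control tunicamycin livers, against 10.44, 10.99 and 10.90 in null vehicle and 10.87, 10.75 and 11.17 in control vehicle livers. It differed by -0.56 ± 0.26 in null livers, with overlap (adjusted p = 0.176), where the lowest array was the one with kidney transcripts and the change without it was -0.27 ± 0.23 (adjusted p = 0.472). Decr2 fell by 0.90 ± 0.26 in control livers, with no overlap (adjusted p = 0.0251). Without control tunicamycin replicate 1 or 2, or control vehicle replicate 3, the call was lost (-0.97 to -0.70, adjusted p of 0.0507 to 0.104). Eci1, the mitochondrial isomerase that moves a double bond into the spiral's position, stood at 11.02, 10.67 and 10.80 in null tunicamycin and 10.65, 10.53 and 10.64 in control tunicamycin livers, against 11.28, 11.23 and 11.15 in null vehicle and 11.39, 11.15 and 11.08 in control vehicle livers. Eci1 differed by -0.39 ± 0.14 in null livers (adjusted p = 0.0777) and fell by 0.60 ± 0.14 in control livers (adjusted p = 0.00738), with every tunicamycin array below the vehicle arrays of its genotype. Decr1, the mitochondrial dienoyl-CoA reductase, differed by 0.29 ± 0.15 in null and -0.09 ± 0.15 in control livers (adjusted p = 0.232 and 0.724). Eci2, a second isomerase, differed by -0.12 ± 0.13 in null livers (-0.01 without null tunicamycin replicate 2) and -0.17 ± 0.13 in control livers.

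Peroxisomal β-oxidation had 1 of 5 genes change in control livers. Ehhadh, the bifunctional hydratase and dehydrogenase that acts on straight chains, stood at 12.11, 11.75 and 11.82 in null tunicamycin and 11.39, 10.84 and 11.67 in control tunicamycin livers, against 11.97, 12.20 and 12.30 in null vehicle and 12.22, 12.24 and 12.24 in control vehicle livers. It differed by -0.27 ± 0.20 in null livers (adjusted p = 0.403) and fell by 0.93 ± 0.20 in control livers (adjusted p = 0.00437). The control tunicamycin arrays lay below the other 9, while null tunicamycin and null vehicle arrays overlapped. The call in control livers was lost when the actin ratio entered the fit (adjusted p = 0.0583). Hsd17b4, the bifunctional enzyme for branched chains and bile acid precursors, differed by 0.11 ± 0.14 in null livers (0.21 without null tunicamycin replicate 2) and -0.09 ± 0.14 in control livers. Acox2, the oxidase for those substrates, differed by 0.45 ± 0.18 in null livers (adjusted p = 0.104) and passed there without null tunicamycin replicate 1 (0.61, adjusted p = 0.0406). Without null tunicamycin replicate 2, the array with kidney transcripts, the Acox2 change was 0.37 ± 0.19 (adjusted p = 0.229). In control livers the Acox2 change was 0.25 ± 0.18 (adjusted p = 0.336), the only positive one besides that of Pdk4. Acaa1a and Acaa1b, peroxisomal thiolases of near-identical sequence, lie 183.9 kb apart on chromosome 9. Whether the probe set of either also binds the transcript of the other was not tested. Acaa1a differed by 0.01 ± 0.21 in null and -0.03 ± 0.21 in control livers. Acaa1b differed by -0.43 ± 0.21 in either genotype with all arrays (adjusted p = 0.185 in null and 0.153 in control livers). Without null tunicamycin replicate 2 the change in null livers was 0.20 ± 0.20 for Acaa1a (adjusted p = 0.555) and -0.17 ± 0.16 for Acaa1b (adjusted p = 0.522), and in control livers Acaa1b passed (-0.43 ± 0.14, adjusted p = 0.0444).

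The ketone enzymes fell in both genotypes. Acat1, the mitochondrial thiolase that joins acetyl-CoA units into acetoacetyl-CoA, stood at 11.88, 11.86 and 11.84 in null tunicamycin and 11.46, 11.57 and 11.46 in control tunicamycin livers, against 12.32, 12.47 and 12.59 in null vehicle and 12.60, 12.36 and 12.38 in control vehicle livers. It fell by 0.60 ± 0.13 in null livers (0.66-fold, adjusted p = 0.00719) and by 0.95 ± 0.13 in control livers (0.517-fold, adjusted p = 0.000193). No arrays overlapped between treatments, and all 3 null tunicamycin arrays lay above all 3 control tunicamycin arrays. The call in null livers was lost with the values as deposited (-0.41, adjusted p = 0.0957) and under the demand for a 2-fold change, and the call in control livers only under that demand, of 27 alternatives. Without null tunicamycin replicate 2 the Acat1 change in null livers was -0.60 ± 0.15 (adjusted p = 0.0175). All 3 Acat1 probe sets fell in both genotypes.

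Bdh1, which interconverts acetoacetate and β-hydroxybutyrate, stood at 11.77, 11.12 and 11.23 in null tunicamycin and 11.40, 10.85 and 11.10 in control tunicamycin livers, against 12.40, 11.99 and 11.80 in null vehicle and 12.05, 12.09 and 11.78 in control vehicle livers. It fell by 0.70 ± 0.22 in null livers (adjusted p = 0.0475) and by 0.86 ± 0.22 in control livers (adjusted p = 0.0128), without overlap in either, though null tunicamycin replicate 1 came close to the lowest null vehicle array. The Bdh1 call in null livers was lost on leaving out any 1 of 9 arrays (-0.73 to -0.53, adjusted p of 0.0526 to 0.172), null tunicamycin replicate 2 included (-0.57, adjusted p = 0.129), and was kept without control tunicamycin replicate 1, null tunicamycin replicate 1 or null vehicle replicate 3. In control livers the Bdh1 call was lost without control tunicamycin replicate 2 (-0.72, adjusted p = 0.0612). Of the other settings besides the 2-fold demand, 8 lost the call in null livers (-0.77 to -0.52, adjusted p of 0.0578 to 0.184). In control livers 3 did so: medians centred, deposited values and the actin ratio (-0.97 to -0.65, adjusted p of 0.0522 to 0.0747).

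Pdk4, which inactivates pyruvate dehydrogenase and so spares glucose when fat is burned, was the only gene of the 34 that rose in the main setting. Pdk4 stood at 9.22, 10.38 and 8.93 in null tunicamycin and 9.24, 9.02 and 8.87 in control tunicamycin livers, against 7.06, 6.67 and 7.36 in null vehicle and 7.09, 7.55 and 7.50 in control vehicle livers. It rose by 2.48 ± 0.32 in null livers (5.57-fold, adjusted p = 0.000328) and by 1.67 ± 0.32 in control livers (3.17-fold, adjusted p = 0.0024). All 6 tunicamycin arrays lay above all 6 vehicle arrays, and null tunicamycin replicate 2 was the highest. Without that array the rise was 2.05 ± 0.22 in null livers (adjusted p = 0.000146). Both Pdk4 calls were kept in all 27 alternatives, with changes of 2.05 to 2.91 in null and 1.42 to 2.37 in control livers.

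No gene of the 34 passed the test between null and control livers. Under tunicamycin 0 of 34 were called, where 3.99% of all genes were (0.755% higher and 3.23% lower in null livers). At an unadjusted p under 0.05 there were 5, or 14.7%, where 15.6% of all genes passed that threshold: Acat1, Crat, Ehhadh, Ppara and Ppargc1a, all with higher means in null livers. The difference was positive in 30 of 34 genes (88.2%, against 52.8% of all genes), the median was 0.21 against 0.02 for all genes, and the arrays of the 2 groups did not overlap in 10 genes (29.4%, against 21.8% of all genes). With medians centred, or the deposited values, the median of the 34 genes was above that of all genes by 0.12, against 0.19 in the main setting. Negative differences numbered 9 with medians centred and 7 with the deposited values, against 4 in the main setting. Crat came nearest the threshold, at 0.74 ± 0.19 (adjusted p = 0.0522). It passed without null tunicamycin replicate 3 or null vehicle replicate 1 (0.75 to 0.88, adjusted p of 0.0405 to 0.0412) and under 4 other settings (lowest adjusted p = 0.0185). Averaging the Crat probe sets that passed the filter gave a difference of 0.33 (adjusted p = 0.426), and with any 1 of the other 10 arrays left out it was 0.60 to 0.82 and did not pass (adjusted p of 0.0562 to 0.19). The difference was 0.59 ± 0.20 for Ehhadh (adjusted p = 0.148), 1.49 ± 0.49 for Ppargc1a (adjusted p = 0.147), 0.36 ± 0.13 for Acat1 (adjusted p = 0.168) and 0.49 ± 0.21 for Ppara (adjusted p = 0.298).

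Without the array with kidney transcripts the difference under tunicamycin was positive in 32 of 34 genes, with a median of 0.29, and again 0 genes were called. The Ppargc1a difference was then 1.00 ± 0.46 (adjusted p = 0.32), that of Crat 0.75 ± 0.22 (adjusted p = 0.0974) and that of Ehhadh 0.66 ± 0.22 (adjusted p = 0.144). Pdk4 differed between null and control livers under tunicamycin by 0.46 ± 0.32 with all arrays (adjusted p = 0.549) and by 0.03 ± 0.22 without that array (adjusted p = 0.971). The difference between null and control livers was negative for 11 of 11 Kupffer cell markers under tunicamycin and for 11 of 11 with vehicle, with medians of -0.64 and -0.45 and 0 called. It was positive for 8 of 8 stellate cell and fibroblast markers under tunicamycin and for 3 of 8 with vehicle (medians of 0.30 and -0.15), and for 11 of 13 hepatocyte markers under tunicamycin and 8 of 13 with vehicle (medians of 0.04 and 0.02), again with 0 called. For endothelial markers it was negative in 8 of 10 under either treatment (medians of -0.09 and -0.10). Without the array with kidney transcripts the difference under tunicamycin was negative for 11 of 11 Kupffer cell markers and positive for 8 of 8 stellate cell and fibroblast markers and 10 of 13 hepatocyte markers (medians of -0.51, 0.30 and 0.02). The part of these cell types in the differences was not tested. The ratio of 5′ to 3′ Gapdh control probe sets averaged 0.401 in null tunicamycin and 0.556 in control tunicamycin livers (exact permutation p = 0.1). With it as a covariate 1 of the 34 genes, Crat, passed (2.9%, against 3.72% of all genes).

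**Figure D4:**
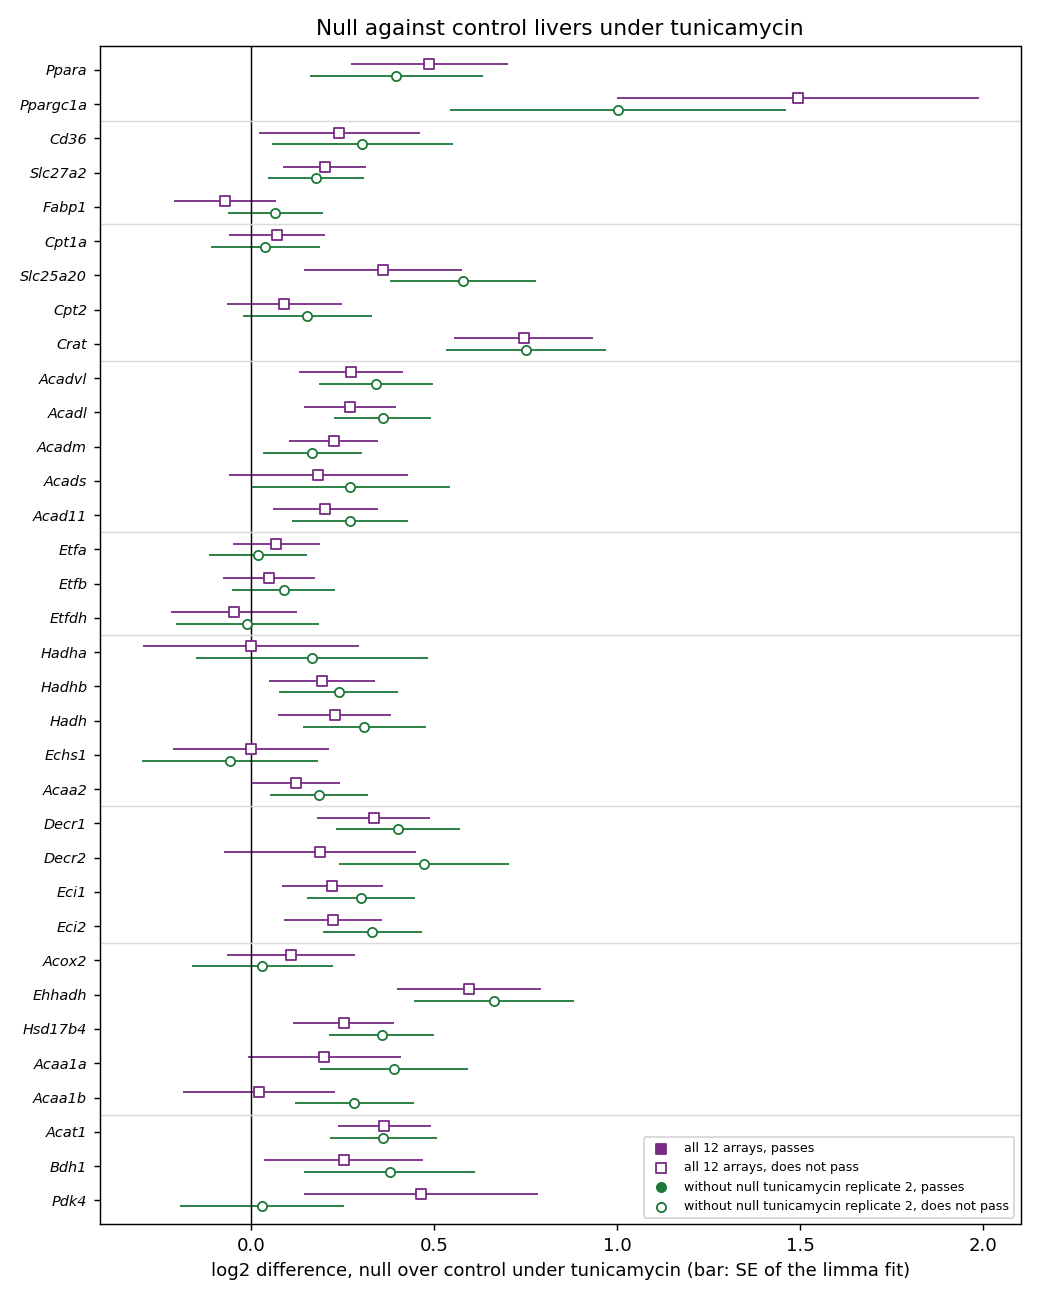
Log2 difference of each of the 34 genes between null and control livers under tunicamycin (bars, standard error of the limma fit), with all 12 arrays (squares) and without null tunicamycin replicate 2 (circles). Open symbols do not pass an adjusted p under 0.05, and all are open. Most lie right of 0, Ppargc1a farthest, and its difference is 1.49 with all arrays and 1.00 without that array.

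With vehicle, 0 of the 34 genes were called between null and control livers, as were 0% of all genes, and 0 had an unadjusted p under 0.05 (4.10% of all genes had). The median difference was 0.01, and in no gene were the arrays of the 2 genotypes apart (8.15% of all genes were). The difference ranged from -0.35 for Pdk4 to 0.71 for Ppargc1a.

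The interaction, the change with tunicamycin in null livers minus that in control livers, was called for 0 of the 34 genes, where 0.837% of all genes were called (0.0137% positive and 0.824% negative). It was positive in 32 of 34 genes (94.1%, against 54.3% of all genes), with a median of 0.17 against 0.03 for all genes, and 2 genes had an unadjusted p under 0.05, which 8.26% of all genes had. These were Crat (0.74 ± 0.27, adjusted p = 0.404) and Ehhadh (0.67 ± 0.28, adjusted p = 0.511). For Ppargc1a it was 0.79 ± 0.70, for Pdk4 0.81 ± 0.45 and for Acat1 0.35 ± 0.18 (adjusted p = 0.882, 0.723 and 0.675). With medians centred the interaction was negative in 7 of the 34 genes, against 2 with the deposited values and 2 in the main setting. Its median stood above that of all genes by 0.10 under either other scaling, against 0.14 in the main setting. Without null tunicamycin replicate 2 it was positive in 34 of 34 genes with a median of 0.25, and 0 were called. The interaction was then 0.29 ± 0.62 for Ppargc1a and 0.38 ± 0.30 for Pdk4 (adjusted p = 0.983 and 0.887), against 0.63 ± 0.31 for Decr2 (adjusted p = 0.638), which stood at 0.34 with all arrays. It was positive for 8 of 8 stellate cell and fibroblast markers with all arrays and for 7 of 8 without that array (medians of 0.38 and 0.33, 0 called). The number of calls was greater in control than in null livers, but no gene of the 34 passed the test of the difference between genotypes.

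Genes that surround the route were read from 6 further lists, and in none of them was a gene called between genotypes or in the interaction with all arrays. The background is the 16.8% of all genes called in null livers (7.59% higher and 9.23% lower) and the 25.0% called in control livers (11.6% and 13.3%), and with 6 to 21 genes a list these shares are coarse. Without the array with kidney transcripts, 3.63% of all genes were called between null and control livers under tunicamycin (122 higher and 407 lower in null livers). Of the lists, 2 of 12 reported PPARα targets and 1 of 14 partners and related receptors were then higher in null livers. No gene of the other lists was called. The 3 genes were Pex11a (1.06 ± 0.19, adjusted p = 0.0103), Acot1 (1.19 ± 0.26, adjusted p = 0.0301) and Ppargc1b (1.90 ± 0.39, adjusted p = 0.0205). With all arrays these differences were 0.66, 0.98 and 1.39 (adjusted p = 0.293, 0.0637 and 0.135). Of 9 measured acyl-CoA synthetase genes, 1 rose and 3 fell in null livers (44.4%), and 1 rose and 2 fell in control livers (33.3%). Acsl4, a synthetase that favours polyunsaturated chains, rose by 1.48 ± 0.15 in null and 1.43 ± 0.15 in control livers (adjusted p = 6.58e-05 and 3.75e-05). Acsm3, a medium-chain synthetase of mitochondria, fell by 1.67 ± 0.21 in null and 2.16 ± 0.21 in control livers (adjusted p = 0.000282 and 1.98e-05). Acsm1, of the same family, fell by 0.49 ± 0.14 in null and 0.53 ± 0.14 in control livers (adjusted p = 0.0284 and 0.0137).

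Of 6 measured genes of ketone handling, 2 rose and 1 fell in null livers, and 1 rose and 2 fell in control livers, 50% in each. Slc16a6, a ketone exporter of liver known from zebrafish, rose by 1.58 ± 0.32 in null and 1.70 ± 0.32 in control livers (adjusted p = 0.00568 and 0.00214). Slc16a7, a monocarboxylate transporter, fell by 1.15 ± 0.22 in null and 1.55 ± 0.22 in control livers (adjusted p = 0.00396 and 0.000296). Aacs, which returns acetoacetate to acetoacetyl-CoA in the cytosol, fell by 1.33 ± 0.22 in control livers (adjusted p = 0.000838).

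Malonyl-CoA, the product of acetyl-CoA carboxylase, blocks Cpt1a, and AMP-activated kinase lifts the block. Of 9 genes of this control, 1 rose and 0 fell in null livers (11.1%), and 1 rose and 3 fell in control livers (44.4%). Prkab2, a β subunit of the kinase, rose by 1.05 ± 0.19 in null and 1.10 ± 0.19 in control livers (adjusted p = 0.00268 and 0.00114). Acacb, the carboxylase of the mitochondrial surface, fell by 1.04 ± 0.32 in control livers (adjusted p = 0.0337). Prkaa1 and Prkaa2, the catalytic subunits, each fell by 0.75 in control livers (adjusted p = 0.00294 and 0.0315).

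Of 12 measured genes reported as PPARα targets outside the 34, 3 rose and 0 fell in null livers (25.0%), and 5 rose and 2 fell in control livers (58.3%). Without the array with kidney transcripts 4 rose in null livers, with Pex11a added. Fgf21, a fasting hormone of the liver, rose by 4.61 ± 0.41 in null livers (24.5-fold, adjusted p = 2.52e-05) and by 4.98 ± 0.41 in control livers (31.5-fold, adjusted p = 6.08e-06). Angptl4, an inhibitor of lipoprotein lipase, and Lpin1, a phosphatidate phosphatase, rose by 1.34 ± 0.34 and 1.24 ± 0.37 in control livers (adjusted p = 0.0125 and 0.0293). Vnn1, a pantetheinase, fell by 1.35 ± 0.33 and Acot1, a cytosolic acyl-CoA thioesterase, by 1.19 ± 0.26 in control livers (adjusted p = 0.00994 and 0.00574).

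Of 14 measured partners, coactivators and related receptors, 2 rose and 1 fell in each genotype, 21.4%. Pprc1, a relative of PGC-1α, rose by 1.52 ± 0.33 in null and 1.11 ± 0.33 in control livers (adjusted p = 0.00809 and 0.0269), the opposite direction to Ppargc1a in control livers. Rxrb rose by 0.72 ± 0.19 in null and 0.98 ± 0.19 in control livers (adjusted p = 0.0218 and 0.0024), and Rxrg, also a retinoid X receptor, fell by 0.55 ± 0.16 in null and 0.57 ± 0.16 in control livers (adjusted p = 0.0352 and 0.0203). Of 21 measured genes of peroxisome assembly, import and α-oxidation, 1 rose and 5 fell in null livers (28.6%), and 1 rose and 7 fell in control livers (38.1%). Abcd2, which imports very long chains, fell by 1.87 ± 0.35 in null and 3.02 ± 0.35 in control livers (adjusted p = 0.00332 and 6.62e-05). Hacl1, the lyase of α-oxidation, fell by 2.03 ± 0.22 in null and 2.50 ± 0.22 in control livers (adjusted p = 0.000114 and 1.19e-05). Pecr, the peroxisomal enoyl-CoA reductase, fell by 1.11 ± 0.13 in null and 1.02 ± 0.13 in control livers (adjusted p = 0.000189 and 0.00015), and Pex2, an assembly factor, rose by 0.52 ± 0.14 in null and 0.97 ± 0.14 in control livers (adjusted p = 0.0223 and 0.000283). Without the array with kidney transcripts the calls in null livers of Rxrg (-0.52, adjusted p = 0.0781), Pex2 (0.49, adjusted p = 0.0546) and Pex26, an assembly factor (-0.43, adjusted p = 0.0745), were lost, and no other call of the 6 lists in null livers.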

How the data were processed

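Total RNA of mouse liver was extracted with Trizol and 6 µg of it was labelled with biotin by the Affymetrix protocol, per the labels. The authors deposited 1 linear intensity for each probe set and array, and the summary algorithm and scaling behind it are details not given in the sources used here. Of 45101 probe sets, 64 controls were left out, and 34945 had 1 gene symbol in the platform annotation, 932 several and 9160 none. Intensities were taken to log2(value + 16) and quantile normalised, the dimmest 30% of probe sets by mean were dropped, and the brightest remaining probe set stood for its gene, for 14568 genes.

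The 4 group means were fitted over all 12 arrays with lmFit and eBayes of limma 3.58.1 in R 4.3.3 (version 1.17.8 of data.table), with 8 residual degrees of freedom, and 5 comparisons were tested two-sided. Adjusted p-values are Benjamini-Hochberg values over all 14568 genes, and a call is an adjusted p under 0.05 with no fold threshold. The words rose and fell are kept for called genes. Tests on all 34945 probe sets with 1 symbol, used where probe sets of a gene are compared, were adjusted over all those probe sets. Figures and promoter searches used Python 3.11.15, pandas 2.3.3 and matplotlib 3.10.9.

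The 34 genes, the 6 further lists and the marker lists were chosen with earlier results of these data known, so no p adjusted over a list is given. Array values are printed for Ppara, Ppargc1a, Cpt1a and Pdk4, for up to 3 called genes per role with the largest change in either genotype, or for the gene with the smallest p where none was called. Further lists are named by up to 3 called genes per direction with the largest change in control livers. In simulated data for tunicamycin against vehicle in control livers, on 14568 genes, 60 of 100 genes changed 2-fold and 94 of 100 changed 4-fold were recovered, with 9 false calls. Only those genes were changed, and noise was drawn independently for each gene, whereas 25.0% of all genes were called in the real comparison. These rates therefore need not carry over to it. Alternatives were the pseudocount, the filter, the scaling, the choice of probe set, the eBayes options, array weights, covariates for RNA integrity, the fit on the compared groups alone, a 2-fold demand, the replicate number as a block, and each array left out. The fit of the further lists and marker lists without null tunicamycin replicate 2 was added after the data were seen.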

Additional observations from a re-analysis of the deposited data

How the results depend on the processing

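For tunicamycin in null livers, 4 genes were called in the main setting, 2 with the values as deposited, 8 with the trend and robust options of eBayes, 1 with a 2-fold demand, and 3 to 5 with 1 array left out. As shares these were 11.8%, 5.9%, 23.5% and 2.9%, and 8.8% to 14.7% with 1 array left out. The shares of all genes were 16.8%, 13.7%, 17.9% and 6.05%, and 11.1% to 16.6% with 1 array left out. In control livers the main count was 15, against 6 with array medians centred, 6 with the values as deposited, 5 with an actin ratio covariate, 2 with a 2-fold demand, and 9 to 16 with 1 array left out. As shares of the 34 genes these were 44.1% in the main setting, 17.6% under either other scaling, 14.7% with the actin ratio and 5.9% with the 2-fold demand, where 25.0%, 22.5% with medians centred, 21.5% as deposited, 12.9% and 9.71% of all genes were called. With 1 array left out the shares were 26.5% to 47.1%, against 17.7% to 27.9% of all genes. Between null and control livers under tunicamycin the main count was 0, against 1 with a pseudocount of 64, 1 with 50% of probe sets left out, 1 with the trend and robust options, 1 with the Gapdh ratio as a covariate, 2 with array quality weights and 0 to 1 with 1 array left out. A count of 1 is 2.9% of the 34 genes and a count of 2 is 5.9%. Of all genes 3.99% were called in the main setting, and 4.9%, 5.65%, 4.55%, 3.72% and 8.81% in the settings named after it, in that order. With 1 array left out 1.92% to 4.04% of all genes were called. The cause of these shifts was not tested. For null against control with vehicle, and for the interaction, the count was 0 in every alternative run. Of 19 calls over all comparisons, 19 kept their direction in every alternative, 8 were lost on leaving out some array, and 4 were lost under no alternative or under the 2-fold demand alone, which were Acat1 and Crat in control livers and Pdk4 in both genotypes. Of 18 pairs of arrays with the same replicate number, 5 correlated above 0.1 in their deviations from the group means (-0.41 to 0.49). The highest value was that of replicate 3 of control tunicamycin and control vehicle livers. No consistent pairing by number was visible, but 3 arrays per group cannot exclude one. With the replicate number as a block the counts were 4 in null livers, 14 in control livers and 0 between genotypes. The first was 11.8% and the second 41.2% of the 34 genes, against 14.7% and 23.2% of all genes. Between genotypes 3.02% of all genes were called under tunicamycin and 0.00686% with vehicle. Weak signals limit low genes on such arrays, and all 34 genes here passed the filter on dim probe sets.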

Other observations

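Some genes of the further lists passed the test in null livers and not in control livers, and are named after their values were seen. Acsl3, an acyl-CoA synthetase, fell by 1.06 ± 0.25 in null livers (adjusted p = 0.0141) and differed by -0.38 ± 0.25 in control livers (adjusted p = 0.309). Slc16a1, a monocarboxylate transporter, rose by 0.89 ± 0.23 in null livers (adjusted p = 0.0193). Txnip, a PPARα target that binds thioredoxin, rose by 1.35 ± 0.31 in null livers (adjusted p = 0.0107). None of them passed the interaction test. Without the array with kidney transcripts the changes in null livers were -1.02, 0.93 and 1.11 for Acsl3, Slc16a1 and Txnip (adjusted p = 0.0352, 0.0333 and 0.034). Of the 11 Kupffer cell markers, Adgre1 fell after tunicamycin by 0.81 ± 0.21 in null livers and by 0.75 ± 0.21 in control livers (adjusted p = 0.0195 and 0.0196). Timd4 fell by 0.93 ± 0.23 in null livers (adjusted p = 0.0165). The background is the 16.8% of all genes called in null livers and the 25.0% called in control livers. Without the array with kidney transcripts 2 of the 11 markers fell in null livers, where 15% of all genes were called. In control livers 1 of the 11 then fell, where 27.9% of all genes were called. None rose in either genotype in that fit, and with 11 genes such shares are coarse.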
